A study of Homo sapiens with 16 samples.

Results

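CUT&RUN peaks of MITF, MAFG and the promoter mark H3K4me3 were examined at 10 genes known as targets of MITF in survival and the cell cycle: BCL2, BCL2A1, BIRC7, CDK2, CDKN1A, CDKN2A, TBX2, MET, PPARGC1A and DIAPH1. The genes were chosen by name, all 10 were found among 20033 protein-coding genes of the RefSeq table (GRCh38.p14), and a peak was counted for a gene when it overlapped the gene body with 10 kb on either side. CUT&RUN tethers a nuclease to an antibody on chromatin, so that DNA near the antibody's target is cut free and sequenced. The cells were WM164, a human melanoma line, overexpressing GFP, the control, or MAFG. Each of these 2 cell populations was profiled with anti-MITF (3 libraries), anti-MAFG (3 libraries) and anti-H3K4me3 (1 library) from about 250000 cells per sample. The anti-rabbit IgG samples were not analysed here. The labels do not give the vector, say whether the cells were a pool or a clone, or say whether replicates came from separate cultures, so p-values measure only the spread between these libraries, which may be technical.

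MITF is a basic helix-loop-helix leucine zipper factor of the pigment cell lineage that binds E-boxes, chiefly CACGTG and the M-box core TCATGTG. In melanoma it is known both for lineage survival, through BCL2 family members and an inhibitor of apoptosis, and for control of proliferation, through a cyclin-dependent kinase and its inhibitors. MAFG is a small MAF protein; it has no activation domain of its own, and binds MAF recognition elements as a dimer with itself or with CNC factors such as NRF2.

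The lists differ in length. GFP-cell lists held 14879 to 26221 anti-MAFG peaks and 19828 to 20117 anti-MITF peaks, and MAFG-cell lists held 1836 to 2818 and 2116 to 2495. The lowest −log10 p in any list was 4.19 to 4.45 in the 6 GFP-cell libraries and 5.20 to 5.47 in the 6 MAFG-cell libraries, so a site had to pass a higher limit in MAFG cells. Of the GFP-cell peaks at the 10 genes, 94.1% to 100% per library lay above the lowest value of the MAFG-cell lists for their antibody. Over all peaks of the same GFP-cell lists the share was similar, 93.3% to 95.7%. Read depth is not given by peak lists. All 8 pigment-lineage markers examined (among them MITF, SOX10 and PAX3) had an H3K4me3 peak in both populations.

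Promoter sequences of RefSeq, build GRCh38.p14, were taken for the 8 genes with an entry; CDK2 and TBX2 had none. CDKN2A and PPARGC1A have 2 entries each, which makes 10 promoters. Matches to the 6-letter E-boxes CACGTG and CATGTG were searched on both strands from 250 bases before to 50 bases after each start. CACGTG was present in 4 of the 10 promoters, those of BIRC7, DIAPH1, MET and PPARGC1A, against 8.34% of 22198 promoters of protein-coding genes. CATGTG was present in 3, those of BCL2A1, BIRC7 and PPARGC1A, against 8.93%. The longer form TCACGTG, which contains CACGTG, occurred in 1 of the 10 (PPARGC1A; 4.44% of all promoters), and TCATGTG in 1 (BCL2A1; 2.32%). The MAF motif TGACTCAGC and the shorter TGACTCA, which it contains, matched none of the 10 (0.491% and 4.01% of all). The loose form TGANNNNGC matched 5 of them, at BCL2A1, CDKN2A, DIAPH1 and PPARGC1A (41.9% of all). The 250 bases before the start are shown for 4 promoters that hold an E-box there, in the direction of transcription, with CACGTG or CATGTG in capitals. They are chosen because they differ in the peaks that cover them.
BIRC7 (chr20:63235655-63235904, plus strand): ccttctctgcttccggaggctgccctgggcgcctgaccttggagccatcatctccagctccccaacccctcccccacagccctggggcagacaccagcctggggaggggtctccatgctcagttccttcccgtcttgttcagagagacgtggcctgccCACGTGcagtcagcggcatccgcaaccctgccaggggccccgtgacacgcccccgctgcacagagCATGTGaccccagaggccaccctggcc
PPARGC1A, upstream start (chr4:24472906-24473155, minus strand): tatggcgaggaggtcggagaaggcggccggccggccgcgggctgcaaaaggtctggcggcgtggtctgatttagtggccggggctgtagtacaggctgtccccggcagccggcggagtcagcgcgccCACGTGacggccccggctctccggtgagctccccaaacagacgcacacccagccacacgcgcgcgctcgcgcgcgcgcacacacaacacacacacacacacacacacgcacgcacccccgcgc
BCL2A1 (chr15:79971197-79971446, minus strand): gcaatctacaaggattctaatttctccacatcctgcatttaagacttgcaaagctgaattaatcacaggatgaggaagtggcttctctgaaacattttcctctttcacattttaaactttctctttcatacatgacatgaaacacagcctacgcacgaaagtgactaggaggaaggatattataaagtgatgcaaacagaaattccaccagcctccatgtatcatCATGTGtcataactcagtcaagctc
DIAPH1 (chr5:141619001-141619250, minus strand): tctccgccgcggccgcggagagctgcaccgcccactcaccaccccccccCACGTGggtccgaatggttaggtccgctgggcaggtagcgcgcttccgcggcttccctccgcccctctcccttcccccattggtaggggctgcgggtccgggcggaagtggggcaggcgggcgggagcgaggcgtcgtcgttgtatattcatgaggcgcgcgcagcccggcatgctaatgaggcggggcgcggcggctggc
In the BIRC7 stretch, CACGTG starts 92 bases and CATGTG 27 bases before the start, and both lay under an anti-MITF peak in 3 of 3 libraries of GFP cells and 3 of 3 of MAFG cells, with no anti-MAFG peak. In the PPARGC1A stretch, CACGTG starts 123 bases before the start and lay under a peak in 3 of 3 anti-MITF and 1 of 3 anti-MAFG libraries of GFP cells. In the BCL2A1 stretch, CATGTG starts 25 bases before the start and lay under a peak in 2 of 3 anti-MITF and 3 of 3 anti-MAFG libraries of GFP cells. In the DIAPH1 stretch CACGTG starts 201 bases before the start, and no factor peak covered it; the nearest factor region ended at 141618999, just inside the gene. At MET the E-box starts 4 bases after the start and lay under a peak in 1 of 3 anti-MITF and 2 of 3 anti-MAFG libraries of GFP cells. In MAFG cells none of these E-boxes other than those of BIRC7 lay under a factor peak. These matches are descriptions of letters and were not tested as binding sites.

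**Figure D1:**
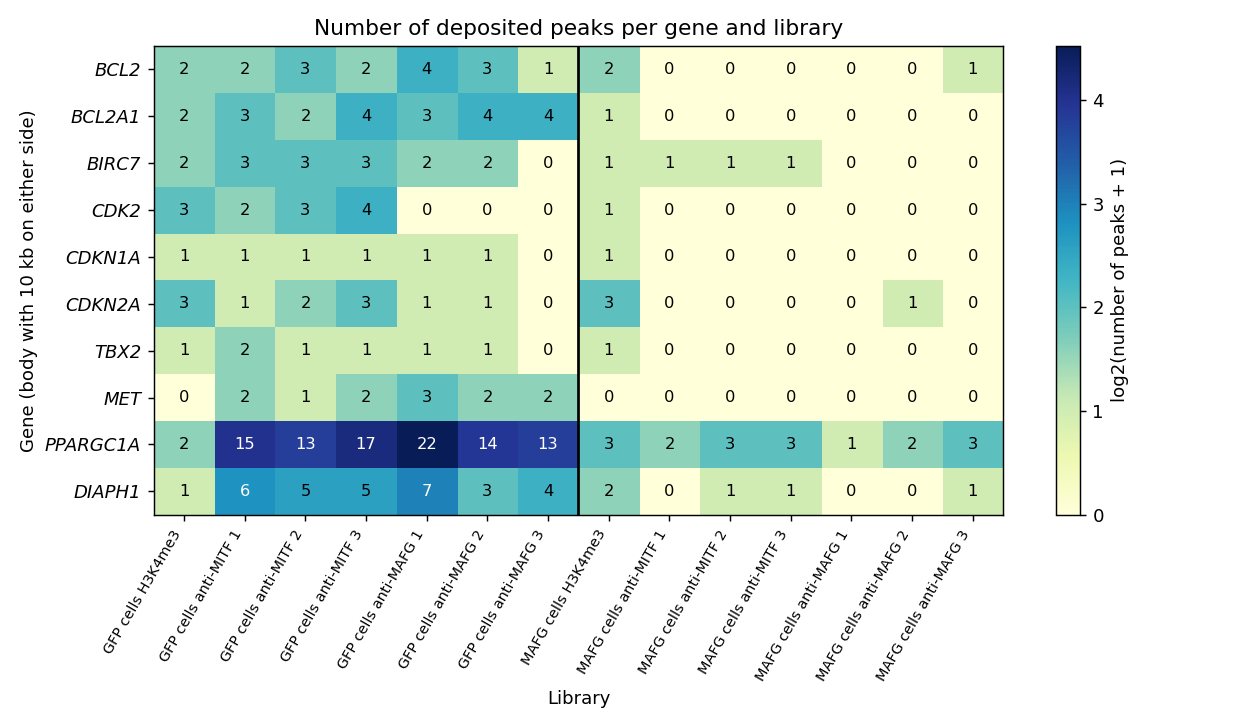
Number of deposited peaks overlapping each gene's body with 10 kb on either side (rows) in each of the 14 libraries (columns; the black line separates GFP cells, left, from MAFG cells, right). Colour gives log2(number + 1). PPARGC1A had 13 to 22 peaks in each of the 6 anti-MITF and anti-MAFG libraries of GFP cells. With anti-MITF, 7 of the 10 genes had peaks in 3 of 3 GFP-cell and 0 of 3 MAFG-cell libraries (24.7% of all genes). Over all genes, only 8.46% had an anti-MITF peak in at least 2 MAFG-cell libraries.

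All 10 genes had anti-MITF peaks in 3 of 3 libraries of GFP cells. Among all protein-coding genes, 38.0% met that rule, and 49.1% had a peak in at least 2 of 3 libraries. With anti-MAFG in GFP cells, 9 of the 10 had a peak in at least 2 of 3 libraries (39.7% of all genes), all but CDK2. Peaks in 3 of 3 were present at 5 genes (26.5%). With 1 of these libraries left out, both remaining ones had to hold a peak, a stricter rule. The former count was then 5 without library 1 or library 2 and 9 without library 3. In MAFG cells anti-MITF peaks were present in at least 2 of 3 libraries at 3 genes, PPARGC1A, BIRC7 and DIAPH1 (8.46% of all genes), and anti-MAFG peaks at PPARGC1A alone (5.31%). Peaks in 3 of 3 MAFG-cell libraries were present at 2 genes with anti-MITF, PPARGC1A and BIRC7 (5.03%), and at PPARGC1A with anti-MAFG (3.41%). Peaks in 3 of 3 GFP-cell and 0 of 3 MAFG-cell libraries were present at 7 genes with anti-MITF (24.7%) and at 2 with anti-MAFG, BCL2A1 and MET (19.3%). The opposite pattern was seen at 0 of the 10 genes (0.00499% of all genes with anti-MITF and 0.105% with anti-MAFG). When the peaks of at least 2 libraries had to share a site, 10 and 8 of the genes remained for anti-MITF and anti-MAFG in GFP cells (46.7% and 37.4%), and 3 and 1 in MAFG cells (8.20% and 5.07%). Because long genes collect more peaks, these shares rise with length. Of genes with a body under 12 kb, which BCL2A1, BIRC7, CDK2, CDKN1A and TBX2 have, 34.5% had anti-MITF peaks and 21.2% anti-MAFG peaks in at least 2 GFP-cell libraries, and in MAFG cells 4.51% and 1.62% did. Of genes of at least 100 kb, as BCL2, MET, PPARGC1A and DIAPH1 are, 69.8% and 72.7% did in GFP cells, against 17.1% and 15.5% for MAFG cells. H3K4me3 peaks were present at 9 of the 10 genes in GFP cells (65.1% of all genes) and at 9 in MAFG cells (60.7%), MET being the exception in both. The factor counts depend on the window. With 5 kb on either side, 9 genes had anti-MITF and 7 anti-MAFG peaks in at least 2 GFP-cell libraries. With the gene body alone 8 and 6 did, and in MAFG cells 2 and 1 did. Shares of all genes for these windows are not given here.

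The number of peaks per gene was compared between MAFG and GFP cells over both antibodies, with an exact permutation test within each antibody (400 assignments, smallest p 0.005) and Benjamini-Hochberg adjustment over the 13349 genes with a peak in any library. It fell at 5 of the 10 genes: PPARGC1A, DIAPH1, BCL2A1, BCL2 and MET. Over all genes tested, 24.8% were called lower and 0 higher (5386 lower and 0 higher at an unadjusted p under 0.05 by the same exact permutation test). The median difference was -1.83 peaks per library over the 10 genes and -0.83 over all genes tested. These medians are not matched for gene length or for peak number in GFP cells, which limits how far a gene can fall. All 10 genes had anti-MITF peaks in 3 of 3 GFP-cell libraries, against 38.0% of all genes. At BIRC7, CDKN1A and TBX2 the adjusted p was 0.0510 by that exact permutation test, with differences of -1.67, -0.83 and -1.0 peaks. With the gene body alone the differences at BIRC7 and TBX2 were 0, and with 5 kb on either side that at TBX2 was -0.17. The BIRC7 body held 1 anti-MITF peak in each library of both populations, and no TBX2 peak of either factor overlapped its body. CDKN2A (-1.17 peaks, adjusted exact permutation p = 0.130) and CDK2 (-1.50 peaks, adjusted exact permutation p = 0.158) also had lower means in MAFG cells. With an equal number of peaks in every library, the 1836 best by −log10 p, 0 of the 10 genes and 0 of 4914 genes tested were called. CDK2, BCL2, CDKN1A, MET and TBX2 then held no peak and were not tested. The same exact permutation test without adjustment gave 1 of the 10 genes, BCL2A1, and 186 of the 4914, of which 127 were lower and 59 higher. Keeping peaks with −log10 q of at least 5 called 3 of the 10 and 1869 of 11834 genes tested, and counting base pairs called 8 and 5802 of 13349. Leaving out any 1 of the 6 GFP-cell libraries called 8 or 9 of the 10 and 5570 to 6454 genes in all. Without any 1 of the 6 MAFG-cell libraries, 4 or 5 of the 10 and 3075 to 3213 genes in all were called. List length and calling limit differ with the cell population, so their part and that of MAFG overexpression cannot be told apart.

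The antibodies were compared in the same way, with labels permuted within each cell population. The exact permutation test called 0 of the 10 genes and 0 of all genes after adjustment. The smallest p it can give, 0.005, came to 0.227 after adjustment, so even a gene at that p could not be called. These 0 calls therefore do not show that the antibodies were alike. At an unadjusted p under 0.05 it gave 610 genes with more anti-MITF peaks (4.57%) and 236 with more anti-MAFG peaks (1.77%). BIRC7 was the only one of the 10 genes among these, with 1.33 more anti-MITF than anti-MAFG peaks per library (exact permutation p = 0.005, the smallest it can give; adjusted 0.227).

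The survival genes come first. BCL2 encodes the founding inhibitor of mitochondrial apoptosis. The window around its body (chromosome 18, body from 63123346 to 63320090) held 2, 3 and 2 anti-MITF peaks and 4, 3 and 1 anti-MAFG peaks in libraries 1, 2 and 3 of GFP cells. In MAFG cells there was 1 peak in all, in anti-MAFG library 3. Anti-MITF peaks were thus present in 3 of 3 GFP-cell and 0 of 3 MAFG-cell libraries, as at 24.7% of all genes. The lowest anti-MAFG value of GFP cells equalled the highest of MAFG cells. The difference over both antibodies was -2.33 peaks (adjusted exact permutation p = 0.0402). Without MAFG-cell anti-MAFG library 1 or 2 the adjusted exact permutation p was 0.0556. With −log10 q of at least 5 the difference was -1.17 peaks (adjusted exact permutation p = 0.183). The most repeated anti-MITF site lay from 63237237 to 63238541, within the gene body and 81722 bases downstream of the listed start, in 3 of 3 GFP-cell libraries with the authors' fold enrichment of 8.80, 5.54 and 5.82. Ranks are by fold enrichment within each list, best first, and are not comparable between lists of different length. The most repeated anti-MAFG site, from 63302428 to 63303301, lay 17083 bases downstream in 3 of 3 libraries (fold enrichment 5.76 to 7.23) and was shared by 1 anti-MITF library. Neither overlapped H3K4me3, which lay at the start in both populations (fold enrichment of 22.1 with GFP and 17.9 with MAFG overexpression). No MITF or MAFG peak covered the 250 bases before the BCL2 start. The MAFG-cell peak, from 63253661 to 63254111, was at the only one of the 68 merged regions of the 10 genes that had a MAFG-cell peak and no GFP-cell peak.

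BCL2A1 encodes a short-lived anti-apoptotic BCL2 relative. It had 3, 2 and 4 anti-MITF peaks and 3, 4 and 4 anti-MAFG peaks in GFP cells, and none in any of the 6 MAFG-cell libraries. The groups did not overlap (-3.33 peaks, adjusted exact permutation p = 0.0213; with anti-MITF 24.7% and with anti-MAFG 19.3% of all genes had peaks in 3 of 3 GFP-cell and 0 of 3 MAFG-cell libraries). The strongest site lay outside the gene, about 6 to 9 kb upstream of the start on chromosome 15 from 79977350 to 79979874. Its anti-MITF fold enrichment was 12.4, 15.98 and 16.6, which ranked 1331 of 19828, 326 of 20117 and 336 of 20102. Its best anti-MAFG peaks ranked 847 of 26221, 1180 of 23409 and 1636 of 14879. A weak H3K4me3 peak from 79978150 to 79979155 lay inside this site in GFP cells (fold enrichment 5.13), and none was called there in MAFG cells. Further sites shared by both antibodies lay at the start and about 3 kb inside the gene, under an H3K4me3 peak of 5280 bp in GFP cells and 5189 bp in MAFG cells. All 3 sites called in at least 2 anti-MITF libraries at this gene were also called in at least 2 anti-MAFG libraries.

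BIRC7, an inhibitor of apoptosis protein abundant in melanoma and also called livin, had 3 anti-MITF peaks in each GFP-cell library and 1 in each MAFG-cell library. Anti-MAFG gave 2, 2 and 0 peaks in GFP cells and none in MAFG cells. The adjusted p over both antibodies missed the threshold (-1.67 peaks, adjusted exact permutation p = 0.0510). The site also called in MAFG cells was the promoter, on chromosome 20 from 63235487 to 63237095, where the E-boxes printed above lie. There the fold enrichment was 10.9, 7.98 and 11.3 in GFP cells, with ranks of 2043, 4880 and 1634. In MAFG cells it was 5.67, 6.39 and 5.20, with ranks of 1805 of 2491, 1220 of 2116 and 2060 of 2495, in the lower part of each list. Anti-MITF summits lay between 186 bases before and 326 bases after the start. No anti-MAFG library had a peak at this promoter. The other BIRC7 region, 3 to 6 kb upstream (63230158 to 63233203), had anti-MITF peaks in 3 of 3 and anti-MAFG peaks in 2 of 3 GFP-cell libraries and none in MAFG cells. It overlapped a weak H3K4me3 peak of GFP cells (fold enrichment 6.36) and none of MAFG cells.

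**Figure D2:**
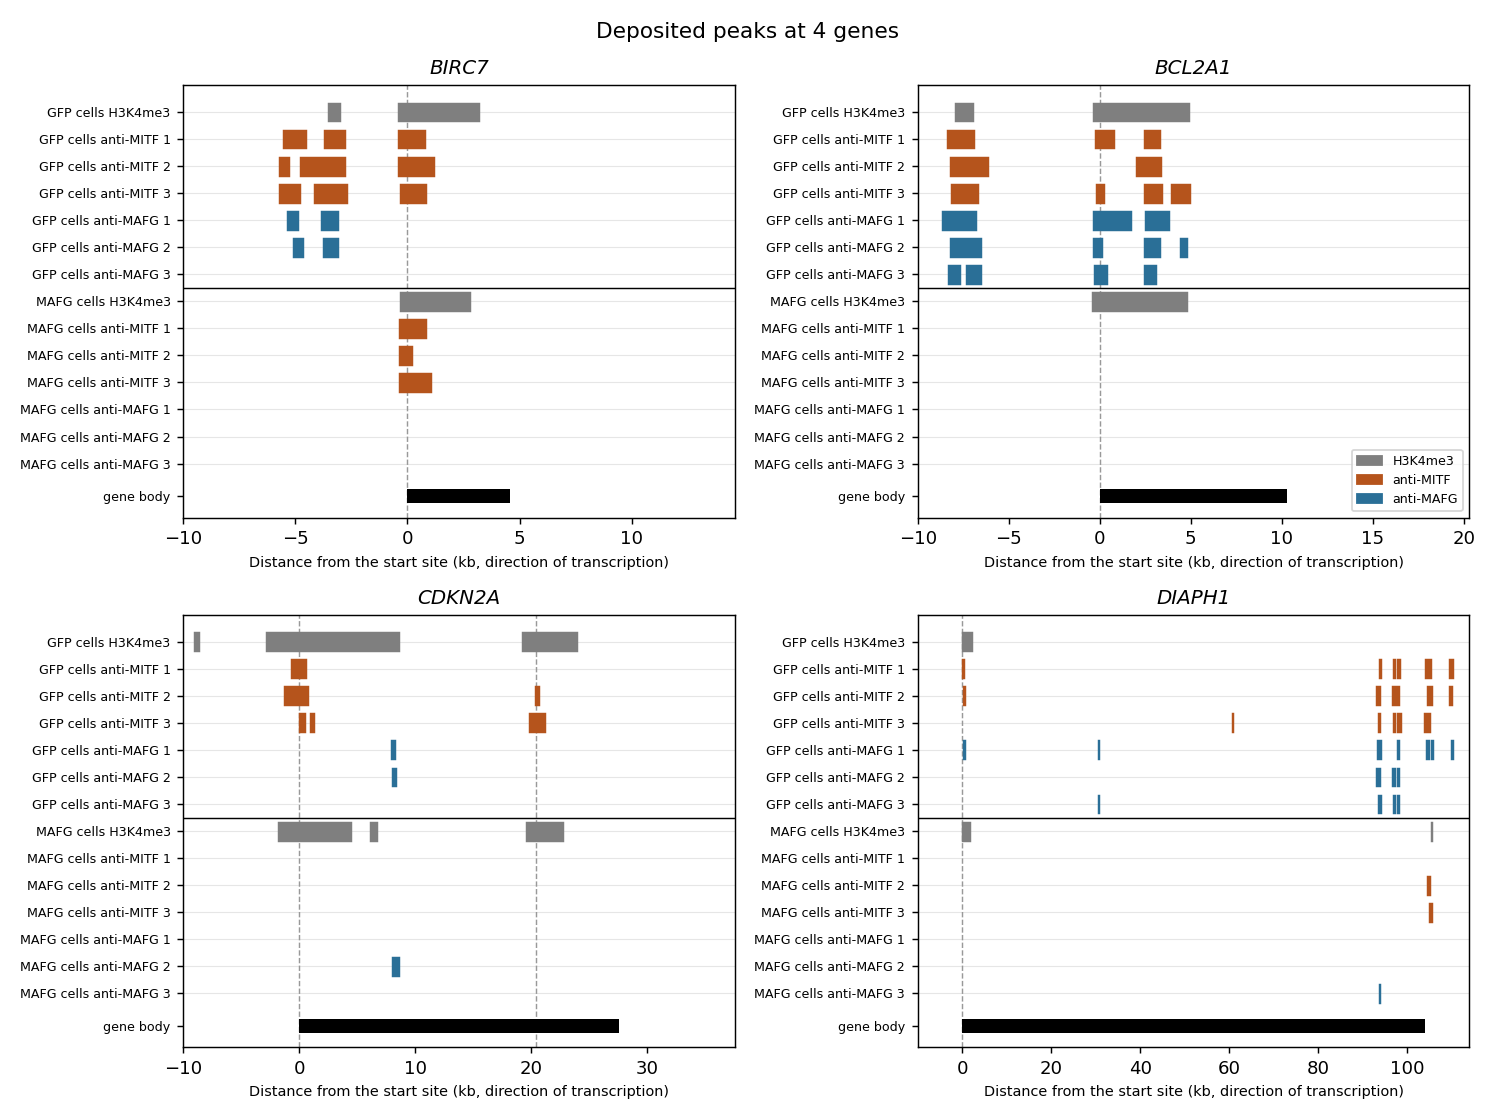
Deposited peaks (bars) in each library (rows) at BIRC7, BCL2A1, CDKN2A and DIAPH1, against the distance in kb from the start site in the direction of transcription; for CDKN2A the more upstream of its 2 listed starts is 0. Dashed lines mark listed starts, the black bar the gene body and the horizontal line the border between GFP cells (above) and MAFG cells (below). The BIRC7 promoter is covered by anti-MITF in all 6 libraries, and BCL2A1 has no factor peak in MAFG cells.

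Among the cell cycle genes, CDK2 encodes the kinase that acts with cyclins E and A at the entry to and during S phase. It was the member with anti-MITF signal only: 2, 3 and 4 peaks in GFP cells, with 0 anti-MAFG peaks in all 6 libraries and 0 anti-MITF peaks in MAFG cells. Its window on chromosome 12 also reaches PMEL, the melanosome fibril gene. Of its 4 anti-MITF regions, 3 were called in at least 2 libraries: from 55964755 to 55966939 at the border of PMEL and CDK2 (3 of 3), from 55969929 to 55971516 inside CDK2 (3 of 3) and from 55972169 to 55973557 across the end of the body away from PMEL (2 of 3). The first, as merged, overlapped both gene bodies and cannot be assigned to either. Only its peak in library 3 reached into the CDK2 body. Its peaks in libraries 1 and 2 lay outside that body and did not overlap each other. Fold enrichment was modest, at most 7.83, and the best peak of each library ranked 6400, 7665 and 8110. All 4 regions lay under a single H3K4me3 domain of 12731 bp (55963023 to 55975753, fold enrichment 70.1, rank 1250 of 13579) in GFP cells and of 12362 bp (fold enrichment 36.7, rank 683 of 11580) in MAFG cells. The mark was present in both populations, and anti-MITF peaks were listed in GFP cells only. Such peaks in 3 of 3 GFP-cell and 0 of 3 MAFG-cell libraries were present at 24.7% of all genes. The CDK2 difference over both antibodies was not called (-1.50 peaks, adjusted exact permutation p = 0.158).

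CDKN1A encodes p21, an inhibitor of cyclin-dependent kinases induced by p53. Each GFP-cell anti-MITF library had 1 peak, all at the promoter (chromosome 6, 36678376 to 36679518), with fold enrichment of 9.30, 5.33 and 4.47. The ranks of 3721, 12755 and 17247 place the last of these near the bottom of its list of 20102. Anti-MAFG gave 1, 1 and 0 peaks in GFP cells, at different sites: 1 near the outer edge of the window (36666865 to 36667195) and 1 at the promoter. No MAFG-cell library had a factor peak at CDKN1A. Anti-MITF peaks in 3 of 3 GFP-cell and 0 of 3 MAFG-cell libraries were present at 24.7% of all genes. The H3K4me3 peak at the CDKN1A start was listed in both populations (fold enrichment 46.5 and 21.9).

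CDKN2A encodes 2 unrelated tumour suppressors, an INK4 inhibitor of CDK4 and CDK6 and the ARF protein, from separate first exons. Like 24.7% of all genes, it had anti-MITF peaks in 3 of 3 GFP-cell and 0 of 3 MAFG-cell libraries. Anti-MITF gave 1, 2 and 3 peaks in GFP cells and none in MAFG cells. Of these 6 peaks, 5 covered a listed start on chromosome 9: the upstream one at 21995324 was covered in 3 of 3 libraries (fold enrichment 7.02 to 9.47 in the region from 21994589 to 21996610) and the downstream one at 21974857 in 2 of 3 (5.11 and 5.76). The remaining peak, the best of library 3 (21994031 to 21994415, fold enrichment 9.002, rank 3447), had its summit 961 bases inside the gene from the upstream start. Anti-MAFG peaks lay elsewhere, from 21986731 to 21987371 between those starts, in 2 of 3 GFP-cell libraries and in MAFG-cell library 2, where the peak ranked 558 of 1849. The 2 antibodies thus shared no region at this gene. H3K4me3 covered both starts in both populations; the upstream domain was 11475 bp wide in GFP cells (fold enrichment 85.4, rank 564 of 13579) and 6364 bp in MAFG cells (13.6, rank 6562 of 11580).

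TBX2 encodes a T-box repressor that restrains senescence through CDKN2A and CDKN1A. Anti-MITF gave 2, 1 and 1 peaks and anti-MAFG 1, 1 and 0 in GFP cells, with none in MAFG cells. Anti-MITF peaks in 3 of 3 GFP-cell and 0 of 3 MAFG-cell libraries were present at 24.7% of all genes. The shared site lay on chromosome 17 from 61393797 to 61394656, about 5 kb outside the gene body and within the body of TBX2-AS1, and overlapped no H3K4me3 peak. Anti-MITF fold enrichment there was 9.66, 8.99 and 6.18, and the anti-MAFG values were lower, 4.53 and 5.84. H3K4me3 lay across the edge of the gene body at 61399843, the edge nearer the shared site, in both populations (fold enrichment 76.0, rank 938, and 37.7, rank 615).

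MET, the receptor for hepatocyte growth factor, had factor peaks at a start without H3K4me3. The region from 116671511 to 116672315 on chromosome 7, across the start at 116672196 and within the body of COMETT as well, was called in 3 of 3 anti-MITF libraries (fold enrichment 5.31, 5.39 and 6.38) and 3 of 3 anti-MAFG libraries (5.69, 6.60 and 5.12) of GFP cells. Neither H3K4me3 list held a peak in the window. The strongest anti-MAFG site lay 110 kb downstream within the body (116781981 to 116782784, fold enrichment 8.20, 9.45 and 7.78) with no anti-MITF peak. A further anti-MITF site lay beyond the gene's far end (116802813 to 116803747) in 2 of 3 libraries with no anti-MAFG peak. Peaks in 3 of 3 GFP-cell and 0 of 3 MAFG-cell libraries were present at 24.7% of all genes with anti-MITF and 19.3% with anti-MAFG. MAFG-cell libraries had no factor peak at MET (-2.0 peaks, adjusted exact permutation p = 0.0213). That call was lost with the gene body alone (-1.17 peaks, adjusted exact permutation p = 0.117) and with −log10 q of at least 5 (-1.33 peaks, adjusted exact permutation p = 0.0672).

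PPARGC1A encodes the coactivator PGC-1alpha, which drives mitochondrial biogenesis and oxidative metabolism. It had by far the most peaks, and its annotated body of 680885 bp, between 23792021 and 24472905 on chromosome 4, is also the longest of the 10. Anti-MITF gave 15, 13 and 17 peaks with GFP and 2, 3 and 3 with MAFG overexpression. Anti-MAFG gave 22, 14 and 13 with GFP and 1, 2 and 3 with MAFG overexpression. The difference over both antibodies was -13.3 peaks (adjusted exact permutation p = 0.0213), where 24.8% of all genes tested were called lower. Only 15 of the 20033 genes, this one included, had as many anti-MITF peaks in GFP cells, and 28 as many anti-MAFG peaks. Per 100 kb, however, its 2.14 anti-MITF peaks in GFP cells were below those at BIRC7 (12.2), CDK2 (11.6) or BCL2A1 (9.90).

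The 31 merged PPARGC1A regions fell into those of both antibodies and those of one. In GFP cells 9 had both antibodies in at least 2 libraries each. The strongest lay from 23887871 to 23891254, where anti-MITF fold enrichment was 22.6, 14.2 and 17.2, at ranks of 70, 569 and 274. It coincided with the stronger H3K4me3 peak of the gene (23886109 to 23891095, fold enrichment 45.5 in GFP cells), which is not at either start listed in the promoter table. Anti-MITF was called there in 3 of 3 MAFG-cell libraries too, at best ranks of 162, 517 and 311, and anti-MAFG in none of them, after 3 of 3 in GFP cells. A second region kept by anti-MITF in 3 of 3 MAFG-cell libraries, from 23934019 to 23935747, overlapped no H3K4me3 peak. Its fold enrichment was 13.9, 12.99 and 7.78 in GFP cells. With MAFG overexpression it was 7.73, 11.4 and 13.1, and the peaks ranked 842, 110 and 60. Anti-MAFG kept other regions in 2 of 3 MAFG-cell libraries, from 23855716 to 23857153 and from 24419016 to 24420171, and neither overlapped H3K4me3. In GFP cells both were called in 3 of 3 anti-MAFG libraries, the former also in 1 anti-MITF library of each population and the latter in none. The region from 23956695 to 23957937 was called in all 6 GFP-cell libraries, with anti-MAFG fold enrichment up to 20.2 (rank 137 of 26221), and in no MAFG-cell library.

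**Figure D3:**
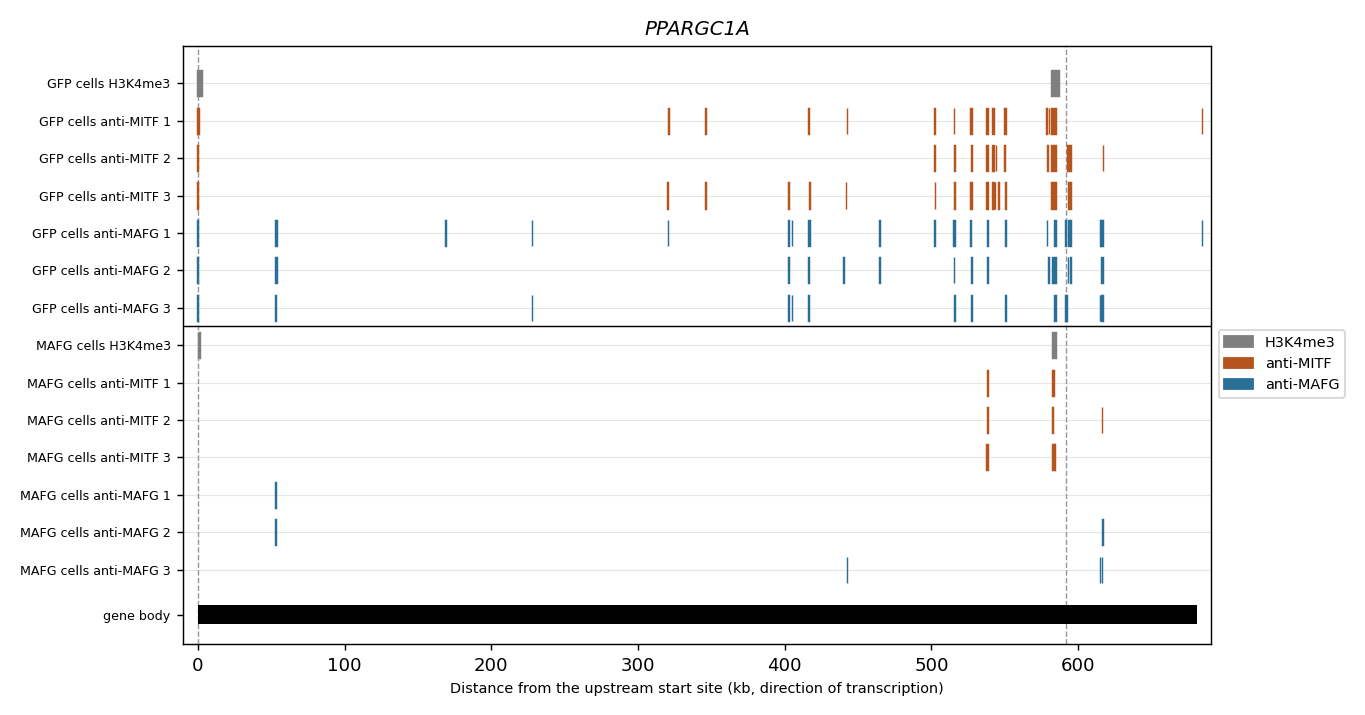
Deposited peaks (bars) in each library (rows) across PPARGC1A, against the distance in kb from its upstream start in the direction of transcription. Dashed lines mark the 2 listed starts, the black bar the gene body and the horizontal line the border between GFP cells (above) and MAFG cells (below). The 2 anti-MITF regions called in 3 of 3 MAFG-cell libraries and the 2 anti-MAFG regions called in 2 of 3 lie at different places.

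DIAPH1 encodes a formin that nucleates actin filaments; its link to the cell cycle is through MITF's control of p27 turnover. Anti-MITF gave 6, 5 and 5 peaks and anti-MAFG 7, 3 and 4 in GFP cells. In MAFG cells the numbers were 0, 1 and 1 with anti-MITF and 0, 0 and 1 with anti-MAFG (-4.50 peaks, adjusted exact permutation p = 0.0213). The strongest sites lay about 94 kb and 98 kb downstream of the start, within the far end of the body: on chromosome 5 from 141524943 to 141525880 and from 141520456 to 141522355, each called in all 6 GFP-cell libraries and with no H3K4me3 peak. The MAFG-cell anti-MAFG peak, in library 3, lay in the former. Anti-MAFG fold enrichment at the former was 13.6, 13.3 and 8.02, and the best anti-MITF values at the latter were 11.9, 7.56 and 11.3. The site with anti-MITF peaks in MAFG cells was another, a merged region from 141513219 to 141515174 at the far end of the gene. The MAFG-cell peaks there lay outside the gene body, which has its edge at 141515021. Only the peak of GFP-cell anti-MITF library 3 reached into the body. The region was called in 3 of 3 GFP-cell and 2 of 3 MAFG-cell anti-MITF libraries, with fold enrichment no higher than 5.86. It overlapped a weak H3K4me3 peak of MAFG cells only (5.40). At the start, under H3K4me3 of both populations (fold enrichment 40.3, rank 4597 of 13579, and 44.4, rank 269 of 11580), anti-MITF was called in 2 of 3 and anti-MAFG in 1 of 3 GFP-cell libraries and neither in MAFG cells.

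**Figure D4:**
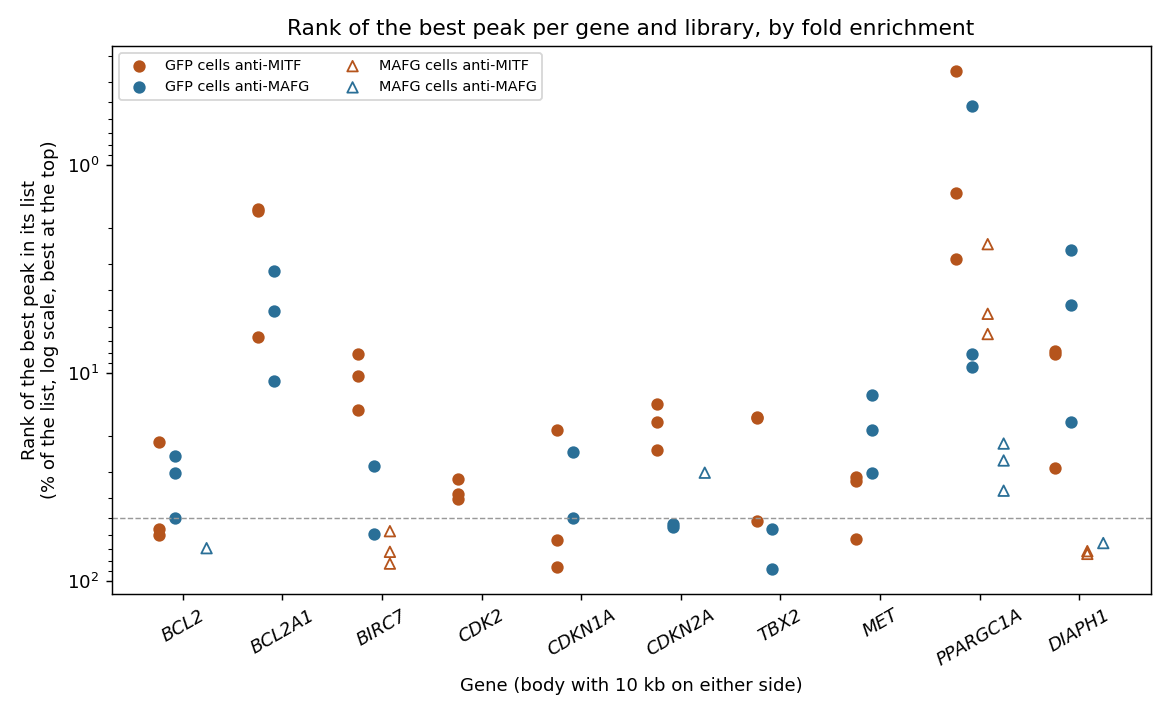
Rank by fold enrichment of the best peak of each gene within its own list, as a percentage of the list (log axis, best at the top; dashed line at 50%), for each library with a peak. Filled circles are GFP cells and open triangles MAFG cells; orange is anti-MITF and blue anti-MAFG. PPARGC1A reaches the top 0.353% of an anti-MITF list in GFP cells, and the MAFG-cell peaks at BIRC7 and DIAPH1 lie below the dashed line.

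Across the 10 genes there were 68 merged regions, of which 16 were called in 1 library only. In GFP cells 35 regions had anti-MITF in at least 2 of 3 libraries. Of these, 17 also had anti-MAFG in at least 2 (48.6%; 59.7% over all such regions of the genome), 14 overlapped H3K4me3 of GFP cells (40.0%; 42.7%) and 4 had anti-MITF in at least 2 MAFG-cell libraries (11.4%; 11.3%). Of the 30 regions with anti-MAFG in at least 2 GFP-cell libraries, 7 overlapped H3K4me3 (23.3%; 26.7%) and 2 had anti-MAFG in at least 2 MAFG-cell libraries (6.67%; 6.96%). The shares kept in MAFG cells were close to those of the genome for both antibodies. The regions kept were 2 at PPARGC1A, 1 at BIRC7 and 1 at DIAPH1 for anti-MITF, and 2 at PPARGC1A for anti-MAFG.

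Related genes from lists by function were counted by the same rule. Of all protein-coding genes, 49.1% had anti-MITF and 39.7% anti-MAFG peaks in at least 2 GFP-cell libraries. In MAFG cells the shares were 8.46% and 5.31%. Of 15 other regulators of apoptosis, 9 had anti-MITF and 7 anti-MAFG peaks in at least 2 GFP-cell libraries, and 1 each did in MAFG cells. BCL2L11, which encodes the pro-apoptotic BIM, had anti-MAFG peaks in 3 of 3 MAFG-cell libraries, and BCL2L1, which encodes BCL-XL, had anti-MITF peaks in 2 of 3. Of 18 other cell cycle genes, 13 had anti-MITF and 9 anti-MAFG peaks in GFP cells, and 1 each in MAFG cells; CDK6 had anti-MAFG peaks and its fellow cyclin D-dependent kinase CDK4 anti-MITF peaks in 3 of 3 MAFG-cell libraries. By the exact permutation test, 1 of 14 tested apoptosis genes and 6 of 16 tested cell cycle genes had fewer peaks in MAFG cells after adjustment and none had more, against 24.8% lower over all genes. The apoptosis gene was BMF, which encodes a pro-apoptotic BH3-only protein (-2.67 peaks), and CDK6 had the largest difference of the 6 (-10.83 peaks). Of 10 pigmentation genes under MITF, 8 had anti-MITF peaks in at least 2 GFP-cell libraries and 4 in at least 2 MAFG-cell libraries, namely TYR, MLANA, RAB27A and MC1R. CDK4 and MC1R are named outside the rule for list genes, after their values were seen.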

How the data were processed

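The 14 peak lists of anti-MITF, anti-MAFG and H3K4me3 were used as deposited. Per the submitters' processing notes, the tools were cutadapt 1.8.1, Bowtie2 2.4.1 and MACS2 2.1.1.20160309, and the build was GRCh38; the calling settings and the control are not given in the sources used here. Peaks were called per library. The authors' fold enrichment, a linear ratio, and their −log10 p and q were deposited for each peak and served to describe, rank or filter peaks within a list. Unplaced contigs were left out, and an overlap of 1 bp counted. Gene bodies and promoters came from RefSeq tables of GRCh38.p14, which give no exons, so intron, exon and UTR positions are not stated. Regions were peaks of the 12 factor libraries merged where they overlapped or touched. The exact permutation tests permuted 3 against 3 libraries within each of 2 strata; genes overlap in position and are not independent. The count was checked against a direct one and the test on simulated data. Alternatives were other windows (5 kb, gene body alone), −log10 q of at least 5, equal peak numbers, summits, base pairs, a replicate block, single libraries left out and, chosen after seeing the data, a shared site. The 10 genes, the lists and the tests were chosen with earlier results of these data known. The text names the 10 genes and, by rule, at most 3 genes per list, those with peaks in the most groups; CDK4, MC1R, TFAM and GAB1 were added after their values were seen. Computation used Python 3.11.15, numpy 2.4.6 and pandas 2.3.3. The markers of other cell types are not reported here.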

Additional observations from a re-analysis of the deposited data

How the results depend on the processing

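Equal peak numbers per library moved most. Genes of the 10 with anti-MITF and anti-MAFG peaks in at least 2 GFP-cell libraries fell to 3 each. Calls between the populations fell to 0 of the 10 and 0 of 4914 genes tested (exact permutation test, 186 at an unadjusted p under 0.05). CDK2, BCL2, CDKN1A, MET and TBX2 held no peak then and were not tested. The differences between populations at CDKN2A, PPARGC1A and BIRC7 turned to 0.17, 0.33 and 0.33 peaks. A −log10 q of at least 5 gave 3 of the 10 and 1869 genes called, and base pairs covered gave 8 and 5802. The replicate block gave 0 and 0 (exact sign flips, smallest p 0.0312; 4 and 3297 at an unadjusted p under 0.05). Libraries sharing a number were not taken as pairs: their deviations from group means had correlations of -0.146 to 0.0212. Leaving out 1 library gave 4 to 9 of the 10 and 3075 to 6454 genes called, both highest without GFP-cell anti-MAFG replicate 3; each other GFP-cell library left out gave 8 of the 10. It also gave 5 to 9 genes with anti-MAFG peaks in GFP cells, 5 without replicate 1 or 2. Both remaining libraries of that group then had to hold a peak. Without MAFG-cell anti-MAFG replicate 1 or 2 the BCL2 call was lost (adjusted exact permutation p = 0.0556 in each).
Of the 5 called genes, MET lost its call with the gene body alone and MET and BCL2 with −log10 q of at least 5. BCL2A1 moved to -2.17 peaks and kept its call under both and with 5 kb. Among the others, −log10 q of at least 5 gave -0.83 at CDK2 and -0.50 at CDKN1A.
The differences between antibodies, none called after adjustment in any setting, turned at BCL2 (0.17, gene body alone), BCL2A1 (0.17, equal numbers), CDKN2A (-0.17, equal numbers), CDKN1A (-0.17, −log10 q of at least 5) and PPARGC1A (1.33 with equal numbers, 1442 base pairs, -1.17 to 1.08 with 1 library left out, above 0 without GFP-cell anti-MAFG replicate 1, 1.08, or GFP-cell anti-MITF replicate 2, 0.17). Counting a shared site left 8 of 9 genes with anti-MAFG in GFP cells and the other 3 counts as they were. The cause of these shifts was not tested.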

Other observations

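Relatives and partners of the 10 genes, a list chosen with earlier results known, gave 12 further genes. PPARGC1B, which encodes the PGC-1 relative PGC-1beta, had anti-MITF and anti-MAFG peaks in 3 of 3 GFP-cell libraries each and in 2 of 3 MAFG-cell libraries each. It was the only gene of that list with peaks in at least 2 libraries of all 4 groups. TBX4, a T-box gene neighbouring TBX2, had peaks of both antibodies in 3 of 3 GFP-cell libraries and in 1 of 3 MAFG-cell libraries each, without an H3K4me3 peak in either population. NRF1, a regulator of mitochondrial genes and partner of PGC-1alpha, had peaks of both antibodies in 3 of 3 GFP-cell libraries and an anti-MAFG peak in 1 of 3 MAFG-cell libraries. Of the 10 genes of the list that were tested, 4 had fewer peaks in MAFG cells (exact permutation test, adjusted over all genes) and none had more. Over all genes tested, 24.8% were called lower and 0 higher. The 4 genes of the list were PPARGC1B, NRF1, TFAM and GAB1. TFAM and GAB1 are named after their values were seen.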
